A study of Mus musculus with 78 samples.

Results

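DBP, NFIL3 and CRY1 are transcriptional regulators of the circadian clock or its outputs, and their messenger RNAs follow the hour of the day in mouse liver. They were taken by symbol from a table of read counts, as 3 of the 2755 genes of a liver expression panel. All 3 were among the 2205 genes tested, and 68 of 78 libraries, in 13 groups, were used. They are described here across treatment groups, and between libraries within a group as a sign of the hour at which a liver was collected.

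In the clock, CLOCK and BMAL1 switch on target genes by day, and the cryptochromes, CRY1 among them, join the PER proteins to shut that drive down, so that CRY1 is a repressor of the core loop. DBP, an albumin D-box binding protein, is an activator that CLOCK and BMAL1 switch on directly, and its transcript has one of the strongest daily rhythms known in liver. NFIL3, also called E4BP4, is a repressor that binds the same D-box sites as DBP and peaks in the opposite phase of the day.

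Livers came from male B6C3F1 mice given 3.5 g/L dichloroacetic acid (DCA) in drinking water or deionized water alone, each mouse giving 1 library from a formalin-fixed, paraffin-embedded block. In the S1, S2 and S3 regimens DCA was given for 10, 32 and 57 weeks and then replaced by water, and in Direct it was given for all 78 weeks. Groups are named by regimen and week of collection, so that mice of S1-10, of S2-32 and S3-57, and of Direct-78 were on DCA when collected, while S1-32, S1-57 and S1-78 had 22, 47 and 68 weeks of water after it, and S2-78 and S3-78 had 46 and 21. Treatment began about a week after the mice arrived as weanlings, on a cycle of equal light and dark with food always present, so the week number stands for age. Control-32, Control-57, Control-78, S1-10, S1-32, S1-57, S1-78 and S2-32 kept 6 libraries each, S3-57 kept 5, Control-10, S2-78 and S3-78 kept 4 each, and Direct-78 kept 3. The labels do not give the hour of death, so that hour and treatment group cannot be told apart, and the part of the hour in any value was not tested. The 4 comparisons at 78 weeks share Control-78, S1-32 and S2-32 share Control-32, and S1-57 and S3-57 share Control-57.

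Expression was read with TempO-Seq, an assay that counts reads of probe pairs joined on each target transcript, and is given as reads per 1000000 normalised reads (CPM). Total counts ran from 541245 to 4285848 per kept library, and those of Direct-78 were the lowest, at 541245, 671116 and 699825. At this depth DBP had 18 to 7324 reads in a library, NFIL3 18 to 1332 and CRY1 0 to 436. Of 12 hepatocyte markers 6 were on the panel, and the most abundant, TTR, had a mean of 23840 CPM.

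In GRCm38 (GENCODE vM21) Dbp lies at chr7:45705088-45710203 on the plus strand, Nfil3 at chr13:52967209-52981073 on the minus strand and Cry1 at chr10:85131700-85185064 on the minus strand. The exon that each probe pair reads is not given. Because DBP and NFIL3 moved in opposite directions between libraries, as described below, the bases just before each gene are shown, taken from RefSeq (GRCm38.p6), 5′ to 3′ on the gene's strand. They span chr7:45704997-45705087 (plus), chr13:52981074-52981289 (minus) and chr10:85185065-85185304 (minus), with an E-box in capitals.
DBP: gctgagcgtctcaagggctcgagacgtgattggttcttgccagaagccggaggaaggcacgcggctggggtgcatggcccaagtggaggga
NFIL3: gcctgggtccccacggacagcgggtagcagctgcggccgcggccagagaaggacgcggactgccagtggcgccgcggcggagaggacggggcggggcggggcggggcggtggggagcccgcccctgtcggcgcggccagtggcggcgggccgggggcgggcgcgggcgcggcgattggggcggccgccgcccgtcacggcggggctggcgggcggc
CRY1: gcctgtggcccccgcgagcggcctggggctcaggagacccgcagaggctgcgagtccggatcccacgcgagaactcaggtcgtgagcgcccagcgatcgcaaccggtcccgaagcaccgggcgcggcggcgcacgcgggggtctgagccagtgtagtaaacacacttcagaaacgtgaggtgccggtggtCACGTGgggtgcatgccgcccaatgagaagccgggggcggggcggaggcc
The search covered 250 bases before each RefSeq start on both strands. That start lies 159 bases inside the GENCODE gene for DBP, 34 for NFIL3 and 10 for CRY1, so the printed stretches end earlier and positions are counted from the RefSeq start. The search was for the E-box CACGTG, the nuclear receptor half-site AGGTCA and the D-boxes TTATGTAA and TTACGTAA. The CRY1 window held CACGTG at -60 to -55, the NFIL3 window held AGGTCA on the opposite strand at -12 to -7, which is past the printed stretch, and the DBP window held none of these letters. Of 32851 promoters of this length 6.02% held CACGTG, 14.0% AGGTCA and 0.931% either D-box, and a match is a description of letters only.

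DBP, the activator, was low in every library of S1-57 and S1-78, and high or low from mouse to mouse in most other groups. In Control-10 the 4 libraries had 221, 223, 287 and 933 CPM. In Control-32 DBP ran from 16.7 to 764 CPM with a median of 209, and in Control-57 from 326 to 1162 with a median of 626.5. All 6 libraries of Control-57 were thus high, while Control-32 was mixed. In Control-78 it ran from 11.5 to 2233 CPM with a median of 142, and 3 mice lay under 13 CPM while the others were far above.

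Among the S1 groups DBP ran from 19.9 to 375 CPM in S1-10 (median 92.0) and from 23.2 to 989 in S1-32 (median 41.6). In S1-32 5 of 6 libraries lay under 100 CPM and mouse 19 alone was high. In S1-57 DBP ran from 12.8 to 96.7 CPM with a median of 30.1, and in S1-78 from 21.0 to 98.0 with a median of 27.1. No library of S1-57 reached the lowest of Control-57, whereas all of S1-78 lay inside the wide range of Control-78.

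The longer regimens held high libraries at each week. In S2-32 DBP ran from 16.1 to 996 CPM with a median of 415, with 2 low mice and 4 high ones. In S2-78 the libraries had 82.2, 219.7, 791 and 951.5 CPM, and in S3-57 they had 81.4, 229, 916, 922 and 1326. Both groups overlapped their controls. In S3-78 they had 15.2, 35.5, 420.0 and 674 CPM, again split into low and high, and in Direct-78 they had 246, 407 and 657 CPM, with none under 100.

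By median, DBP fell in the order S3-57, Control-57, S2-78, S2-32, Direct-78, Control-10, S3-78, Control-32, Control-78 and S1-10, with S1-32 next and then S1-57 above S1-78. The ranges of all neighbours in that order overlapped, so none differed beyond its spread. Values under 100 CPM were seen in 20 of 24 S1 libraries, 5 of 22 controls, 3 of 10 of S2, 3 of 9 of S3 and 0 of 3 of Direct. They were as frequent in S1-10 as in Control-78, 3 of 6 in each. The line of 100 CPM lies just above the highest libraries of S1-57 (96.7) and S1-78 (98.0), so these counts depend on where it was put. Except for Direct they also pool groups of different weeks, and they are a description only.

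**Figure D1:**
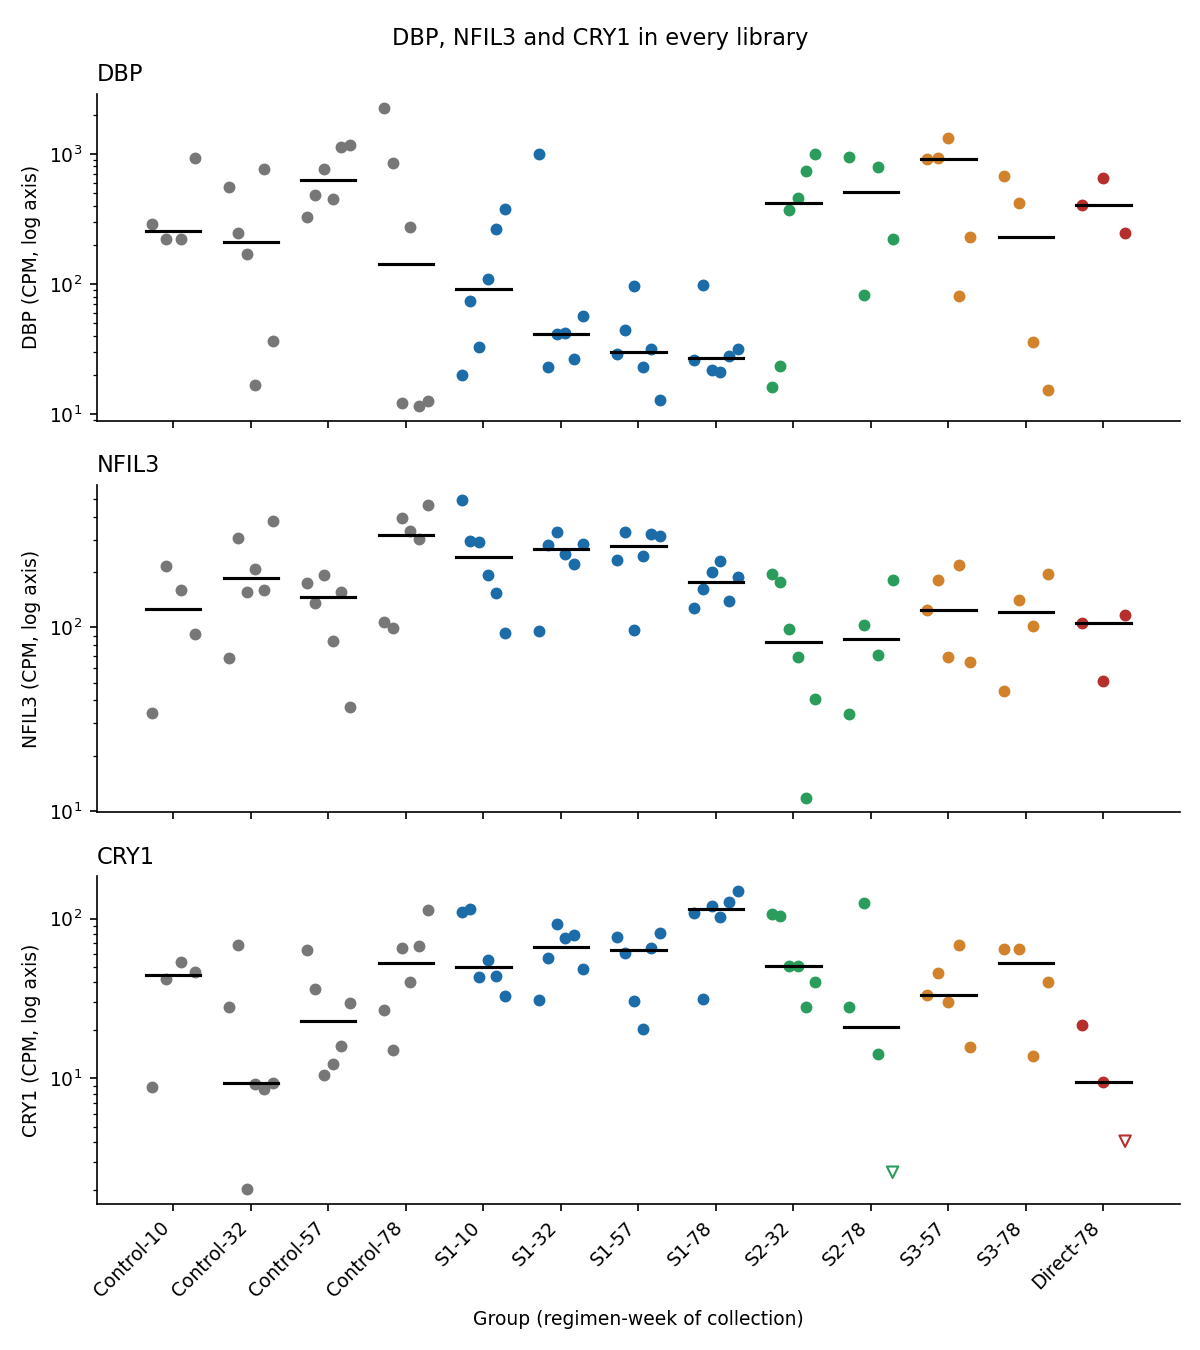
Expression of DBP, NFIL3 and CRY1 (CPM, log axis, 1 panel a gene) in the 68 kept libraries by group, each point 1 mouse, the bar the group median, colours the regimen, and open triangles CRY1 counts of 0 drawn at the bound of 3 counts. DBP lay at 12.8 to 96.7 CPM in S1-57 against 326 to 1162 in Control-57, and spread from 11.5 to 2233 within Control-78.

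Each treated group was compared with water controls of the same week, which asks what DCA left in the liver beyond age, with edgeR. A gene was called where its adjusted p did not exceed 0.05 and its fold change was over 1.5. DBP fell in S1-57, 47 weeks after DCA was withdrawn, by 4.18 on the log2 scale (SE 1.10, 95% interval -6.38 to -1.98, adjusted p = 0.0319 in edgeR), which is 18.1-fold lower, in 6 of 6 libraries. DBP was the member called there, 1 of 3, in a comparison that called 1.59% of all genes tested. DBP also fell in S1-78, by 3.91 (SE 1.09, interval -6.09 to -1.74, adjusted p = 0.0407 in edgeR), 15.1-fold on the scale of means, and it was again 1 of 3 members where 1.81% of all genes were called. Yet mice 87, 89 and 90 of Control-78, at 12.1, 11.5 and 12.5 CPM, lay under the lowest library of S1-78, at 21.0. Several summed markers of cell types differed between S1-57 or S1-78 and their controls too, by median and untested. In S1-78 against Control-78 those of stellate cells and fibroblasts stood at 448 against 73.3 CPM. Those of cholangiocytes stood there at 152 against 46.1 and of acinar cells at 58.2 against 16.7. Macrophage markers stood at 1142 against 627 CPM, endothelial at 198 against 106 and erythroid at 381 against 352. In S1-57 against Control-57 those of stellate cells and fibroblasts stood at 228 against 181 CPM. Those of cholangiocytes stood there at 66.7 against 37.7 and of acinar cells at 27.1 against 28.8. Macrophage markers stood at 924 against 1331 CPM, endothelial at 225 against 120 and erythroid at 211 against 379. Hepatocyte markers stood at 41090 against 35960 CPM in S1-57 and at 42050 against 31130 in S1-78, each against its control. Those of lymphocytes stood at 43.98 against 52.72 CPM in S1-57 and at 39.42 against 28.83 in S1-78. In a bulk lysate, fewer cells that express a gene and less of its RNA in each cell cannot be told apart. The part of cell types in the DBP calls was not tested.

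These 2 calls sat near the threshold. Over the 9 alternatives the S1-57 change ran from -4.31 to -3.94 with an adjusted p of 0.00155 to 0.218, and the call ended with all 78 libraries (-4.20). It also ended, at -4.25 to -3.96, without any 1 of mice 25, 26, 28, 29 or 30 of S1-57, or 81, 82 or 83 of Control-57 (adjusted p up to 0.0797). The S1-78 call ended with all 78 libraries (-3.94), with limma on the authors' values (-1.60), with 2 groups alone in the fit (-3.91), and without the 4 libraries with pancreatic acinar signal (-3.87, chosen after seeing the data), over an adjusted p of 0.00307 to 0.576. It ended too without mouse 31, 33, 34, 35 or 36 of S1-78 (-3.87 to -3.79), mouse 86 (-3.73) or mouse 85 (-2.69), the Control-78 mouse with 2233 CPM.

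In the other 7 groups DBP was not called, with log2 changes from -1.51 in S1-10 to 0.54 in S2-32. Leaving out 1 library moved the first to -2.05 (mouse 18) or -0.74 (mouse 72) and the second to 0.10 (mouse 42) or 1.10 (mouse 77). The values for S2-78 (-0.14), S3-57 (-0.05), S3-78 (-0.98) and Direct-78 (-0.37) turned sign under some alternatives, reaching 1.84 and 2.03 with limma in S2-78 and Direct-78. In S3-57 the value reached 0.22 without mouse 53, and it also turned without mouse 54, 83 or 84. In S3-78 it reached 0.22 without mouse 85, and leaving out mouse 85 turned S2-78 (1.08) and Direct-78 (0.98) too, as mouse 44, 47 or 86 did for S2-78. In S1-32 the change was -0.60 (SE 0.97, adjusted p = 0.659 in edgeR). Without mouse 19 edgeR gave -2.97 (adjusted p = 0.0299), while over the alternatives the adjusted p ran from 0.0300 to 0.891.

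NFIL3, the repressor of D-box genes, was highest where DBP was lowest in 7 of 13 groups. In Control-10 the libraries had 34.2, 91.7, 160.2 and 217.5 CPM. In Control-32 NFIL3 ran from 67.8 to 379 CPM (median 185), and in Control-57 from 36.8 to 194 (median 146). These 3 control groups overlapped throughout. In Control-78 it ran from 99.3 to 463.5 CPM with a median of 321, the highest median of the 13 groups, and mice 85 and 86, the highest for DBP, were its lowest.

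NFIL3 ran from 93.0 to 497 CPM in S1-10 (median 242.5), from 95.7 to 331 in S1-32 (median 267) and from 96.4 to 332 in S1-57 (median 279.9). In S1-57 5 of 6 libraries lay above all of Control-57. In S1-78 it ran from 127 to 229 CPM (median 176), inside the range of Control-78 and with the smallest standard deviation of the 13 groups on the log2 scale (0.32), though not in CPM, where that of Direct-78 was smaller (35.4 against 38.5).

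In S2-32 NFIL3 ran from 11.8 to 195 CPM with a median of 83.5, the lowest median, and 2 of 6 libraries lay under all of Control-32. The S2-78 libraries had 33.6, 71.1, 102.6 and 181 CPM. All 4 lay under the median of Control-78. The S3-57 libraries had 64.8, 69.35, 125, 182 and 219.6 CPM, overlapping Control-57. The S3-78 libraries had 44.9, 102.3, 142 and 196 CPM and those of Direct-78 had 51.3, 106 and 118 CPM, all under the median of Control-78 but overlapping its lower end.

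By median, NFIL3 fell in the order Control-78, S1-57, S1-32, S1-10, Control-32, S1-78, Control-57, Control-10, S3-57, S3-78, Direct-78, S2-78 and S2-32, and all neighbours overlapped. Against the age-matched control NFIL3 was called in Direct-78, where it fell by 1.63 (SE 0.63, 95% interval -2.89 to -0.38, adjusted p = 0.0475 in edgeR), 3.11-fold lower, in 3 of 3 libraries under the control median. With CRY1 this made 2 of 3 members called where 24.4% of all genes were. The log2 changes of the other groups at 78 weeks were -0.70 in S1-78, -1.56 in S2-78 (SE 0.55, adjusted p = 0.126 in edgeR) and -1.23 in S3-78, and that of S2-32 was -1.11 (adjusted p = 0.117 in edgeR), none of them called. NFIL3 in S2-32 was called with upper-quartile factors (-1.37) and with DESeq2 (-1.24), where the adjusted p over the alternatives ran from 0.0370 to 0.212. In S1-10, S1-57, S3-57 and S1-32 the changes were 1.01, 0.98, 0.02 and 0.19, none called, and that of S1-32 turned to -0.07 with upper-quartile factors and to -0.27 with total count as a covariate.

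CRY1, the repressor of the core loop, was the least abundant of the 3 and highest in S1-78. In Control-10 the libraries had 8.85, 42.2, 46.1 and 53.4 CPM. In Control-32 CRY1 ran from 2.03 to 68.35 CPM with a median of 9.31, the lowest median, and mouse 74 set the upper end. In Control-57 it ran from 10.4 to 63.55 CPM (median 22.9) and in Control-78 from 15.0 to 113 (median 53.1).

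In S1-10 CRY1 ran from 32.9 to 114 CPM (median 49.6), in S1-32 from 30.9 to 93.3 (median 66.2) and in S1-57 from 20.4 to 81.7 (median 63.5). In each, 3 of 6 libraries lay above all their controls. In S1-78 it ran from 31.55 to 148.5 CPM with a median of 115, and mouse 32 alone lay under 100. In S2-32 it ran from 28.2 to 107 CPM (median 50.5), with all 6 libraries above the control median.

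The S2-78 libraries had 0, 14.2, 27.9 and 125 CPM. The count of 0, in mouse 47, allows up to 2.59 CPM as 3 counts, a bound on counting error alone. The S3-57 libraries had 15.7, 30.2, 33.2, 45.8 and 68.2 CPM and the S3-78 libraries 13.8, 40.4, 64.9 and 65.1, all overlapping their controls. The Direct-78 libraries had 0, 9.45 and 21.7 CPM, from 0, 7 and 22 reads, the 0 in mouse 66 allowing up to 4.05 CPM, and 2 of the 3 lay under all of Control-78.

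By median, CRY1 fell in the order S1-78, S1-32, S1-57, Control-78, S3-78, S2-32, S1-10, Control-10, S3-57, Control-57, S2-78, Direct-78 and Control-32, with all neighbours overlapping. It fell in Direct-78, by 2.35 (SE 0.90, 95% interval -4.15 to -0.56, adjusted p = 0.0470 in edgeR), 5.11-fold, in 3 of 3 libraries under the control median. In S1-32 the log2 change was 1.59 (SE 0.64, adjusted p = 0.0538 in edgeR) and in S2-32 it was 1.58 (SE 0.64, adjusted p = 0.0998), neither called. Without mouse 74 of Control-32 edgeR gave 2.54 (adjusted p = 0.00372) and 2.53 (adjusted p = 0.00750), and without mouse 19 the S1-32 value was 1.74 (0.0456). Both were also called by limma (2.36 and 2.27) and by DESeq2 (1.58 and 1.56), and S1-32 with median-ratio factors (1.57) and without the libraries with acinar signal (1.74). Their adjusted p ran from 0.00906 to 0.469 and from 0.0233 to 0.274 over the alternatives. In the other groups the changes ran from -0.39 in S2-78 to 1.00 in S1-57, none called, and those of S2-78 and S3-78 (-0.25) turned to 0.28 and 0.42 with total count as a covariate.

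The 3 libraries of Direct-78 held fewer reads than all of Control-78 (2098777 to 4285848), and the median of all genes there was -0.33 on the log2 scale. Median-ratio and upper-quartile factors moved that median by 0.40 and 0.45. NFIL3 then changed by -1.18 and -1.09 and CRY1 by -1.97 and -1.88, none of these called. With total count as a covariate the values were -0.18 and -1.04, also not called, and the part of depth in these calls was otherwise not tested. Median summed markers of erythroid cells were 77.5 CPM in Direct-78 against 352 in Control-78, of cholangiocytes 131 against 46.1 and of acinar cells 149 against 16.7. Those of stellate cells and fibroblasts stood there at 195.8 against 73.28 CPM, of lymphocytes at 60.97 against 28.83 and of endothelium at 169.9 against 105.9. Macrophage markers stood at 551.6 against 627.1 CPM and hepatocyte markers at 29460 against 31130. The part of these cell types in the NFIL3 and CRY1 calls was not tested. The NFIL3 call ended as well with limma (-1.46), DESeq2 (-1.18) and 2 groups alone (-1.56), and the CRY1 call with 2 groups alone (-2.29) and with all genes of at least 1 count (-2.42). Over these alternatives the adjusted p ran from 0.0195 to 0.959 for NFIL3 and from 0.0122 to 0.742 for CRY1. Leaving out 1 library ended the NFIL3 call for mice 64, 65, 66, 85, 87, 88, 89 and 90 (-1.82 to -1.15) and the CRY1 call for mice 65, 66, 85, 87, 89 and 90 (-2.31 to -1.76), while CRY1 without mouse 64 was -3.52.

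**Figure D2:**
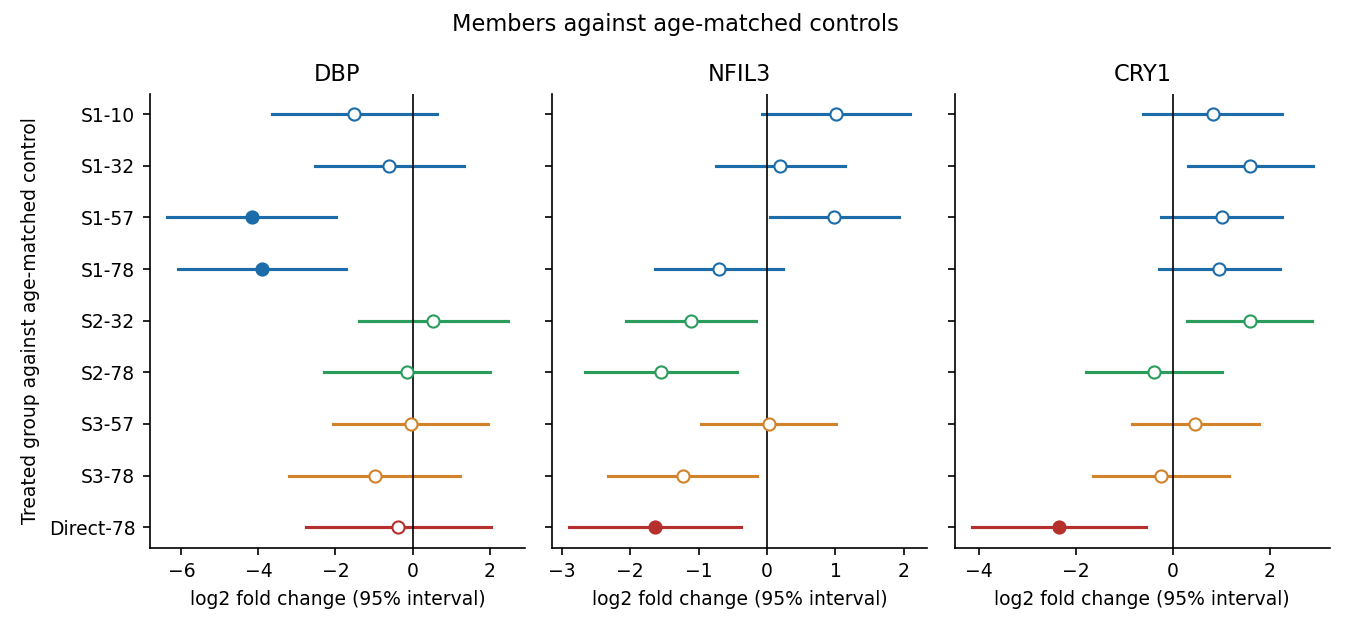
The log2 fold change of DBP, NFIL3 and CRY1 in each of the 9 treated groups against water controls of the same week, with 95% intervals from edgeR as lines, filled points called and open points not called. DBP in S1-57 (-4.18) and S1-78 (-3.91) and NFIL3 (-1.63) and CRY1 (-2.35) in Direct-78 are the filled points.

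No member was called in the other comparisons with controls. The shares of all genes called there were 5.49% in S1-10, 29.1% in S1-32, 10.7% in S2-32, 1.63% in S2-78, 6.39% in S3-57 and 13.3% in S3-78.

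Each member differed among the 13 groups as a whole in edgeR, where 58.6% of all genes did, with an adjusted p of 0.00833 for DBP, 0.0150 for NFIL3 and 0.0294 for CRY1. With total count as a covariate NFIL3 (0.0665) and CRY1 (0.133) no longer passed, nor did CRY1 without mouse 36 (0.0532) or mouse 65 (0.0513). Over the alternatives these ran from 0.00530 to 0.0665 and from 0.00174 to 0.133. Groups collected in the same week were compared next, since they share age. At 57 weeks DBP differed (adjusted p = 0.0300 in edgeR, 1 of 3 members, 5.03% of all genes). That call ended with all 78 libraries (0.155, over a range of 0.0171 to 0.155) and without any 1 of mice 25, 26, 28, 29, 30, 51, 82 or 83 (up to 0.0702). At 32 weeks 0 of 3 members passed in edgeR (adjusted p 0.613, 0.0696 and 0.0876, against 0.508, 0.0220 and 0.0323 unadjusted), where 26.8% of all genes did. Limma called NFIL3 (0.0219) and CRY1 (0.0112) at 32 weeks, and DBP passed there without mouse 19 (0.0321).

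At 78 weeks DBP (0.0455), NFIL3 (0.0485) and CRY1 (0.0375) differed in edgeR by adjusted p, 3 of 3 members where 29.8% of all genes did. All 3 calls ended with total count as a covariate (0.0794, 0.795 and 0.294). The DBP call also ended with limma (0.0725), and that of NFIL3 with limma (0.102), median-ratio factors (0.152) and upper-quartile factors (0.189). Over the alternatives the adjusted p ran from 0.0437 to 0.0794 for DBP, 0.0186 to 0.795 for NFIL3 and 0.00449 to 0.294 for CRY1. Leaving out 1 library ended the NFIL3 call in 17 of 23 cases, which were mice 33, 34, 35, 36, 43, 44, 45, 55, 56, 59, 64, 65, 66, 87, 88, 89 and 90 (up to 0.132). It ended the DBP call in 10, mice 31, 33, 34, 35, 36, 43, 64, 66, 85 and 86 (up to 0.0950), and the CRY1 call in 6, mice 33, 34, 35, 36, 65 and 66 (up to 0.114).

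The 4 control groups did not differ in DBP (adjusted p = 0.790 in edgeR), NFIL3 (0.261) or CRY1 (0.468). There 5.12% of all genes passed, the unadjusted p of the members was 0.606, 0.0543 and 0.166, and limma called none of the 3 either. DBP in mice on water alone thus spanned 11.5 to 2233 CPM without a difference between weeks that passed, and within Control-78 alone the highest was 194-fold above the lowest.

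Treated groups of 1 week were set against each other to compare DCA that went on with DCA that had stopped. DBP was 17.4-fold higher in S3-57 than in S1-57, a log2 difference of 4.12 (SE 1.11, adjusted p = 0.205 in edgeR), not called. In that comparison edgeR called 0 genes, which is 0% of those tested, with 111 at an unadjusted p under 0.05, limma called 0 and DESeq2 called 7. DBP was called by DESeq2 there, at 3.98 (adjusted p = 0.0156, chosen after seeing the data), over a range of 0.0156 to 0.499. The S3-57 libraries, 81.4 to 1326 CPM, overlapped those of S1-57, 12.8 to 96.7, at 1 mouse. In S2-32 against S1-32 NFIL3 differed by -1.31 (SE 0.48, adjusted p = 0.114 in edgeR), DBP by 1.14 and CRY1 by -0.01. Leaving out 1 library moved that DBP value from 0.70 (mouse 42) to 3.51 (mouse 19). In Direct-78 against S3-78 the differences were -0.40 for NFIL3, 0.61 for DBP and -2.10 for CRY1, and leaving out 1 library moved them to 0.04 (mouse 65) or -0.68 (mouse 55), 0.21 (mouse 60) or 1.47 (mouse 55), and -1.49 (mouse 66) or -3.27 (mouse 64). None of these was called by edgeR or DESeq2, where edgeR called 3.54% and 5.03% of all genes.

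Whether the change against control itself differed between weeks was tested as an interaction. For mice on DCA at collection (S1-10, then S2-32 and S3-57, and last Direct-78) it differed for NFIL3 (adjusted p = 0.0249 in edgeR) and CRY1 (0.0315) and not for DBP (0.636), 2 of 3 members where 34.1% of all genes passed. The NFIL3 changes were 1.01, -1.11, 0.02 and -1.63 in that order, and those of CRY1 were 0.82, 1.58, 0.46 and -2.35. With total count as a covariate neither passed (0.103 and 0.701), nor did CRY1 with upper-quartile factors (0.0545). NFIL3 also missed without mouse 68 (0.0586), and CRY1 without mouse 65 (0.0871), 66 (0.119) or 90 (0.0610). For the S1 regimen over 4 weeks 0 of 3 members passed (adjusted p 0.161 for DBP, 0.195 for NFIL3 and 0.905 for CRY1 in edgeR, with limma also at 0, and 0.0341, 0.0473 and 0.837 unadjusted), where 8.57% of all genes did. The fall of DBP in S1-57 and S1-78 was therefore not shown to differ from S1-10 and S1-32.

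Between mice of the same group DBP varied more than nearly all genes. Its pooled standard deviation within groups was 1.92 on the log2 scale, a factor of 3.78, against 0.93 for the median gene, and it ranked 29 of 2205. NFIL3 (0.90, rank 1151) varied like a typical gene and CRY1 (1.24, rank 504) somewhat more. The highest library exceeded the lowest more than 10-fold in 8 of 13 groups for DBP, in 1 of 13 for NFIL3 and in 1 of the 11 groups without a CRY1 count of 0. The dispersion that edgeR fitted to DBP was 4.71 times that of genes of like abundance, against 1.20 for NFIL3 and 1.46 for CRY1.

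Within groups DBP and NFIL3 moved in opposite directions. Over 68 libraries, as deviations from group means, Pearson's r was -0.66 and Spearman's rho -0.63, each with a permutation p of 1e-05, the smallest that 100000 two-sided permutations within groups can give (adjusted p = 6e-05 over 6 relations). Without mice 19 and 85, the farthest from the median of DBP, r was -0.63 and rho -0.59. With all 78 libraries they were weaker, -0.37 (permutation p adjusted to 0.00087) and -0.50 (0.00018), while over all alternatives r ran from -0.71 to -0.37 and rho from -0.68 to -0.50. In all 8 groups of 6 libraries rho was negative, from -0.94 in S1-10 and S2-32 to -0.09 in S1-57. The library highest for DBP was lowest for NFIL3 in 7 of 13 groups, and the one lowest for DBP was highest for NFIL3 in 7 of 13. Libraries were not split by a batch in the labels, so values within batches cannot be given.

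CRY1 was tied more loosely to the others. For NFIL3 and CRY1 r was 0.24 (permutation p = 0.0838, adjusted 0.126) and rho 0.36 (p = 0.00815, adjusted 0.0245), and without mice 41 and 84 they were 0.23 and 0.35. That rho no longer passed with median-ratio factors (0.28), upper-quartile factors (0.26) or all 78 libraries (0.24), with an adjusted p of 0.00399 to 0.131 over the alternatives, while r passed without the libraries with acinar signal (0.38, adjusted p = 0.00954). For DBP and CRY1 r was -0.23 (permutation p = 0.0717, adjusted 0.126) and rho -0.27 (p = 0.0469, adjusted 0.0703), and without mice 19 and 85 they were -0.18 and -0.22. In groups of 6, rho of DBP and CRY1 was negative in 6 of 8 and that of NFIL3 and CRY1 positive in 6 of 8. The log2 total count was related to NFIL3 (r 0.33, permutation p = 0.0118, adjusted 0.0354, and rho 0.27, adjusted 0.0703) and not beyond the threshold to DBP (r -0.12, rho -0.08, adjusted 0.368 and 0.548) or CRY1 (r 0.23, rho 0.19, adjusted 0.140 and 0.189). The relation of total count to NFIL3 also missed the threshold with median-ratio factors (r 0.29), upper-quartile factors (r 0.26) and all 78 libraries (r 0.22), over an adjusted permutation p of 0.00714 to 0.237. Without mice 28 and 73 it missed the threshold with r at 0.30 (permutation p = 0.0409, adjusted 0.0976, and rho 0.22). With all 78 libraries the relation of total count to CRY1 passed (r 0.52, permutation p adjusted to 0.00087, and rho 0.45, adjusted to 0.0009), over a range of 0.00087 to 0.286 for r and 0.0009 to 0.337 for rho. With total count removed from the deviations, the partial r of DBP and NFIL3 stayed negative (permutation p adjusted to 3e-05).

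**Figure D3:**
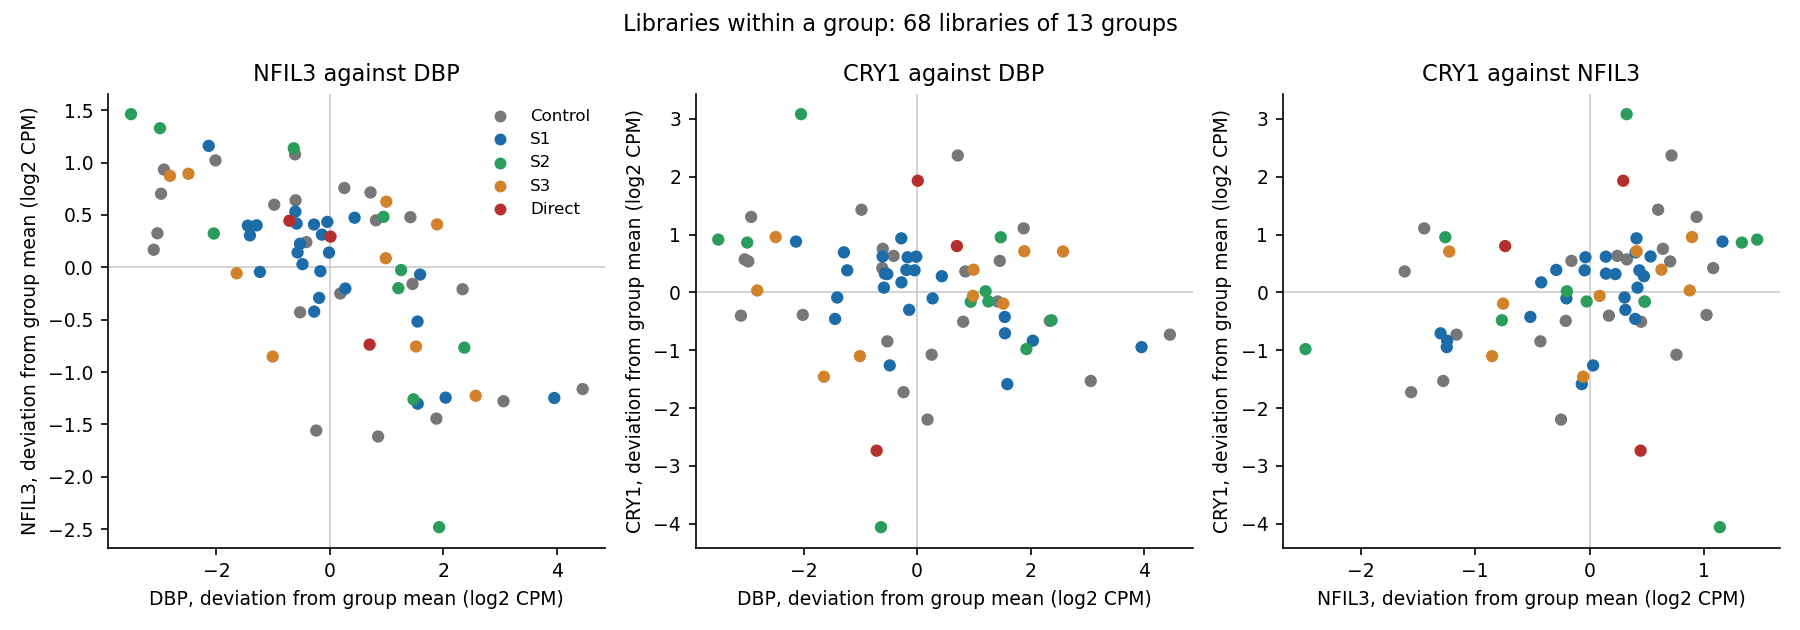
Each pair of DBP, NFIL3 and CRY1 as deviations from group means (log2 CPM) in 68 libraries, each point 1 mouse coloured by regimen. Libraries high in DBP lie low in NFIL3 (r -0.66), while r of CRY1 with DBP (-0.23) and with NFIL3 (0.24) did not pass.

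The ratio of DBP to NFIL3 reads in a library needs no scaling between libraries, although its level depends on how well each probe works, so that it is compared between mice and not with 1. The log2 ratio ran from -5.21 in mouse 90 of Control-78 to 5.95 in mouse 41 of S2-32. Within groups its standard deviation was 2.63, against 2.12 if both genes varied independently. The group medians were 2.34 in S3-57, 2.33 in S2-32, 2.19 in Control-57, 1.95 in Direct-78, 1.88 in S2-78 and 1.77 in Control-10. They were 0.02 in S3-78, -0.09 in Control-32, -1.40 in S1-10, -2.45 in S1-78, -2.52 in Control-78, -2.80 in S1-32 and -3.19 in S1-57. In S1-78 the ratio had its smallest spread among groups of 6, with a standard deviation of 0.95, and in Control-78 its largest, 4.32. These ratios are a description and were not tested.

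**Figure D4:**
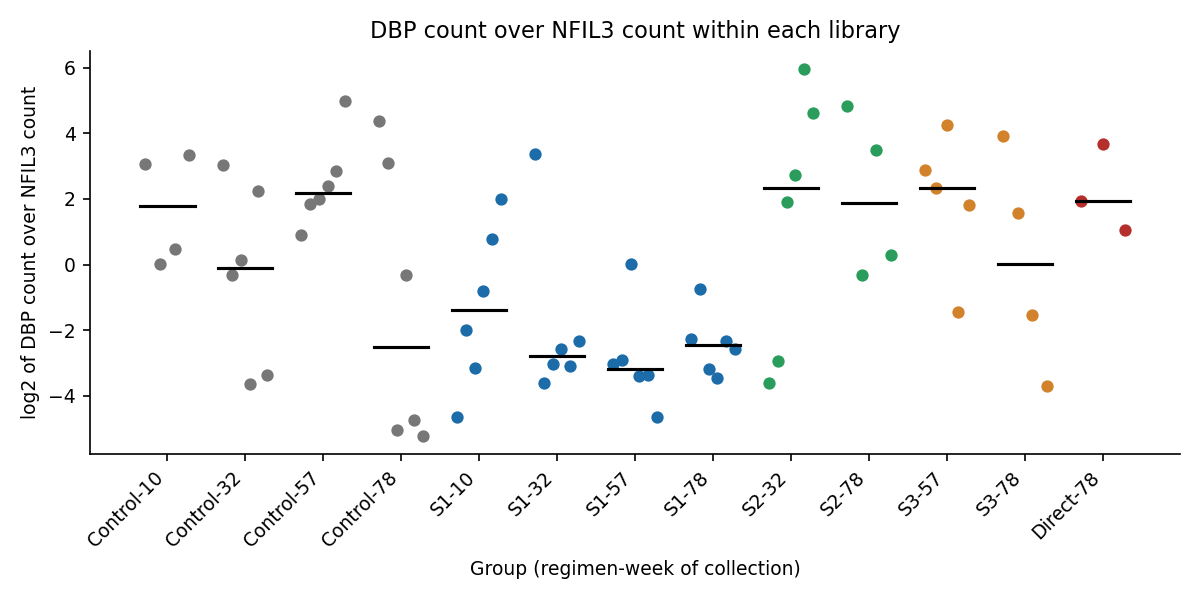
The log2 ratio of DBP to NFIL3 reads in each of 68 libraries by group, each point 1 mouse, and the bar the group median. S1-78 lies from -3.45 to -0.73 while Control-78 spreads from -5.21 to 4.38.

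The genes whose deviations from group means were most like those of DBP over 68 libraries were CYP2A5 (Spearman's rho 0.67), VDAC1 (0.54) and CYP2A4 (0.54), and the least like were CDKN1A (-0.68), NFIL3 (-0.63) and CHKA (-0.55). CYP2A5 and CYP2A4 are cytochrome P450 enzymes of liver, VDAC1 a channel of the outer mitochondrial membrane, CDKN1A a cell cycle inhibitor and CHKA choline kinase alpha. From the 5th to the 95th percentile, rho with DBP ran from -0.25 to 0.24 over all other genes. The same enzymes were at the other end for NFIL3, with rho of -0.56 for CYP2A5 and -0.56 for CYP2A4 after DBP itself. The genes most like NFIL3 were ERO1LB (0.62), an oxidoreductase of the endoplasmic reticulum, SERPINA4-ps1 (0.61) and U2AF1 (0.60), a splicing factor, where the percentiles were -0.28 and 0.34.

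**Figure D5:**
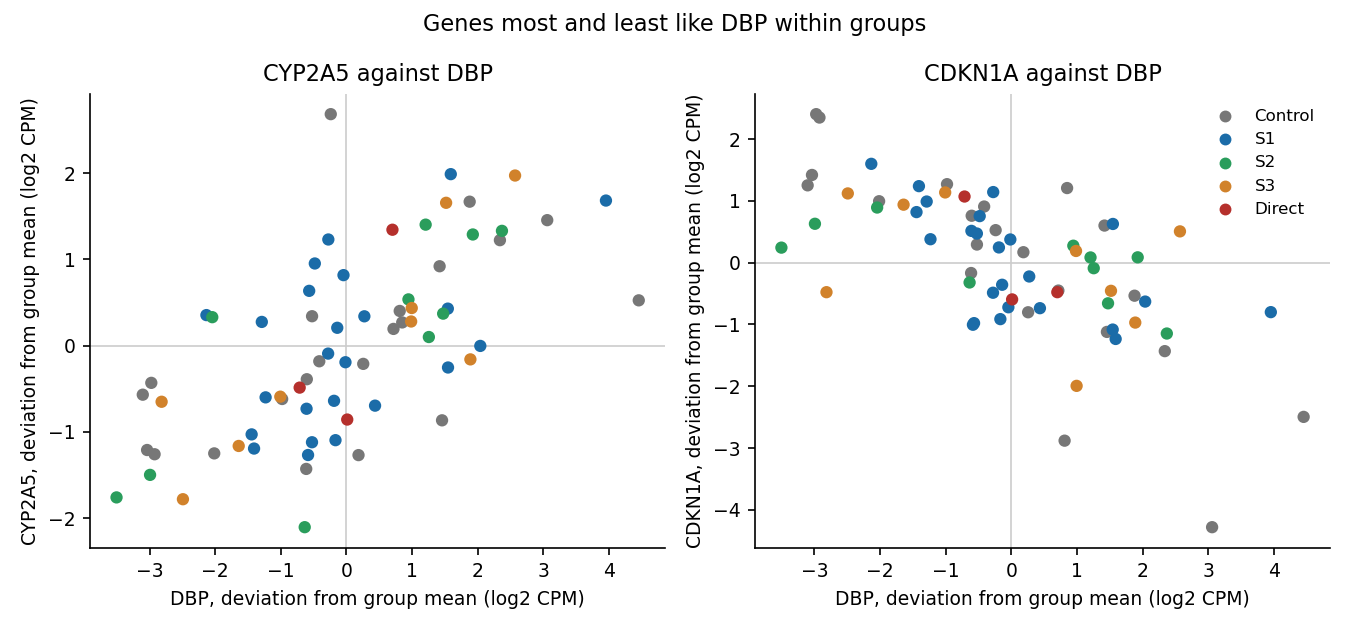
CYP2A5 and CDKN1A against DBP as deviations from group means (log2 CPM) in 68 libraries, each point 1 mouse coloured by regimen. CYP2A5 is high where DBP is high (rho 0.67) and CDKN1A is low there (rho -0.68).

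CRY1 was most like NCOA3 (rho 0.76), a nuclear receptor coactivator, ZFP131 (0.73), a zinc finger protein, and HNRNPH1 (0.72), an RNA-binding protein, and least like GM3002 (-0.73), COG4 (-0.70), a Golgi complex subunit, and H2AFZ (-0.68), a histone variant. Its percentiles over all genes were wider, -0.53 and 0.55, so that many genes moved with or against CRY1 between libraries. These genes were picked as the extremes of 2204 and no test is given.

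Of 27 genes of the clock written as 5 lists 8 were on the panel, and all 8 were tested. None of 3 loop activators or 5 REV-ERB and ROR receptors was among them. Of the other clock genes BHLHE40, a repressor of CLOCK and BMAL1, HLF, an activator related to DBP, and the kinases CSNK1E, CSNK1A1 and GSK3B were measured. CSNK1E fell in S1-10 (-1.71, SE 0.38, adjusted p = 0.00645 in edgeR), where the libraries had 81.1 to 112 CPM against 90.2 to 905 in Control-10, overlapping. The 905 CPM is mouse 68, and without it the change was -0.25 (adjusted p = 0.868 in edgeR, chosen after seeing the data), so that 1 library carries this call. CSNK1A1 fell in S3-78 (-1.08, SE 0.36, adjusted p = 0.0366 in edgeR), at 305 to 440.3 CPM against 373 to 1159. That call ended with median-ratio (-0.90) and upper-quartile factors (-0.80), and without mouse 55, 56, 59, 60, 87, 89 or 90 (-1.11 to -0.97). With those factors CSNK1E was called there instead, as a rise (1.27 and 1.33, against 1.05 and an adjusted p of 0.0540 in edgeR with TMM factors). In Direct-78 BHLHE40 (-1.67, adjusted p = 0.0323), CSNK1A1 (-1.24, adjusted p = 0.0248) and GSK3B (-1.07, adjusted p = 0.00342) fell in edgeR, 3 of 5 where 24.4% of all genes were called. With median-ratio or upper-quartile factors GSK3B alone of the 5 was called (-0.67 and -0.61). The BHLHE40 call also ended without mouse 64, 66 or 85 (-1.55, -1.14 and -1.30), and that of CSNK1A1 without mouse 64, 66 or 89 (-1.06, -0.73 and -1.08), while without mouse 65 they were -2.41 and -2.05. GSK3B had 90.5, 110 and 113 CPM there, under the lowest of Control-78, 182. In the other 6 comparisons with controls edgeR called 0 of the 5, and the counts were the same with median-ratio and upper-quartile factors. HLF, with a median of 4.71 CPM, was not called in any group.

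As lists, the repressors (2 of 8 tested, CRY1 and BHLHE40) had 2 members fall in Direct-78, where 24.4% of all genes were called, and 0 called elsewhere. Their median change in Direct-78 was -2.01 against -0.33 over all genes. Both calls ended with median-ratio and with upper-quartile factors. The PAR bZIP genes with NFIL3 (3 of 4 tested) had DBP fall in S1-57 and S1-78 and NFIL3 in Direct-78, and their median was -0.03, -0.71 and -0.37 in these, against 0.07, 0.07 and -0.33. The shares of all genes called in these groups were 1.59%, 1.81% and 24.4%. The kinases and ligases (3 of 7 tested) had 1 fall in S1-10, 1 in S3-78 and 2 in Direct-78, where 5.49%, 13.3% and 24.4% of all genes were called. Their medians were -0.26, -0.47 and -1.07 against -0.03, 0.07 and -0.33. Within groups BHLHE40 had a rho of 0.43 and HLF of 0.26 with DBP, above the 95th percentile of all genes (0.24), while their rho with NFIL3 (-0.25 and -0.17) lay inside the percentiles of all genes. CSNK1E had a rho of -0.44 with NFIL3, under the 5th percentile (-0.28), and of 0.22 with DBP, inside the percentiles. CSNK1A1 and GSK3B lay inside the percentiles for both DBP and NFIL3. These are a description with no test.

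Signal of pancreatic acinar genes stood apart in 4 kept libraries, mice 17 of S1-10, 19 of S1-32, 36 of S1-78 and 47 of S2-78, with summed markers of 5699, 2620, 33650 and 15440 CPM against group medians of 4.30 to 149. Of 16 acinar markers 13 were on the panel, CEL was the most abundant and CPB1, PNLIP, PRSS2 and REG1 had a median count of 0. Mouse 19 was the DBP-high library of S1-32 and mouse 47 the library of S2-78 with no CRY1 read, and the part of this signal in their values was not tested. Without these 4 libraries, chosen after seeing the data, DBP changed by -2.97 in S1-32 and by -3.87 in S1-78, and r of DBP and NFIL3 kept its direction and its side of the threshold. Mouse 66 of Direct-78 and mouse 75 of Control-32 had a squared Spearman correlation with the mean library of 0.641 and 0.627, and each had its group's lowest CRY1 value.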

How the data were processed

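The members and all gene lists were chosen with earlier results of these data known. The authors, through BioSpyder, matched reads to the panel's probes, and the deposited count table holds raw counts of 2755 genes in 78 libraries. Values in the 2 other deposited tables are normalised signal, scaled by median ratio in Partek Flow 10.0.22.0524. They served 1 alternative and gave the 68 libraries and 2205 genes analysed.

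Raw counts were fitted in R 4.3.3 with edgeR 4.0.16, with TMM factors and 1 quasi-likelihood model of 13 groups. Tests were two-sided, and p-values were adjusted by Benjamini-Hochberg over the 2205 genes within a comparison. Pairwise calls needed an adjusted p not above 0.05 and a fold change over 1.5, and F tests the adjusted p alone. Correlations used log2 CPM with a prior count of 2, minus group means, and 100000 permutations within groups. Python 3.11.15, numpy 2.4.6, scipy 1.17.1, pandas 2.3.3 and matplotlib 3.10.9 were used.

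Named genes were the members, every tested gene of the 5 clock lists, up to 3 called genes of smallest adjusted p from each other list and comparison, and the 3 genes most and least like each member by Spearman's rho. The other lists covered rhythmic liver outputs, fasting and feeding, glucocorticoid response, immediate-early genes, heat shock and 8 sets of cell type markers.

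Alternatives were upper-quartile or median-ratio factors, every gene with 1 count or more, all 78 libraries, log2 total count as a covariate, limma 3.58.1 on log2 of the authors' values, DESeq2 1.42.0, the 2 compared groups alone, and each library left out in turn. For correlations they were a prior count of 0.5, partial correlation and leaving out 2 libraries. Leaving out 4 libraries with acinar markers above 1000 CPM, DESeq2 between treated groups, and other factors or 1 library left out for called genes of the lists, were chosen after seeing the data.

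Total counts were 541245 to 4285848, and intervals or bounds of 3 counts cover counting error only, since reads carry no molecular identifiers. The 10 libraries the authors left out entered that alternative alone, and replicates were checked for copies. The fit and the correlations were tested on simulated data.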

Additional observations from a re-analysis of the deposited data

Results flagged for a closer look

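In 36 combinations of gene and group with at least 4 libraries, 6 held a library whose gap to its neighbour was large for the group's range on the log2 scale. Chance alone does this in about 1 in 20 groups. For DBP these were mouse 19, highest in S1-32 (gap over range 0.764, 989 CPM against 57.0 for the next mouse), and mouse 32, highest in S1-78 (0.738, 98.0 against 31.6 CPM). For NFIL3 they were mouse 19 again, lowest in S1-32 (0.677, 95.7 against 222 CPM), and mouse 27, lowest in S1-57 (0.712, 96.4 against 233 CPM). For CRY1 they were mouse 68, lowest in Control-10 (0.866, 8.85 against 42.2 CPM), and mouse 32, lowest in S1-78 (0.758, 31.55 against 102.3 CPM). Mouse 19 was thus apart in opposite directions for DBP and NFIL3, as mouse 32 was for DBP and CRY1.

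For mice on DCA at collection, the change against water controls differed between weeks for NFIL3 (adjusted p = 0.0249 in edgeR) and for CRY1 (adjusted p = 0.0315 in edgeR), as tested by an interaction. With total count as a covariate neither passed (0.103 and 0.701), and NFIL3 missed without mouse 68 (0.0586) and CRY1 without mouse 65 (0.0871), 66 (0.119) or 90 (0.0610), and with upper-quartile factors (0.0545). Among libraries the authors left out, NFIL3 in mouse 70 of Control-10 stood at 278.8 CPM, above the 214.5 CPM of the highest kept control of that week on the same scale.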

How the results depend on the processing

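No paired analysis was possible because each mouse gave 1 library and its number belongs to 1 group. All values without a p are log2 changes, and except where the alternative itself uses fewer or other libraries the cause was not tested. For DBP, NFIL3 and CRY1, the changes in S1-10 and the tests among the 4 control groups kept direction and side of the threshold under each alternative run, as did DBP among the 13 groups. So did DBP against NFIL3 within groups, although r ran from -0.71 to -0.37 and rho from -0.68 to -0.50, weakest with all 78 libraries.

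Over the comparisons, median-ratio factors moved the median of all genes by -0.13 to 0.40 and upper-quartile factors by -0.29 to 0.45. With median-ratio factors 68 of 78 results kept direction and side. NFIL3 in Direct-78 (-1.18) and CRY1 there (-1.97) lost the call, CRY1 in S1-32 gained it (1.57), and DBP turned in S2-78 (0.012) and S3-57 (0.012). The adjusted p of NFIL3 became 0.0435 at 32 weeks and 0.152 at 78 weeks, rho of NFIL3 and CRY1 was 0.28 and r of total count and NFIL3 0.29, neither passing, and called clock genes in Direct-78 went from 3 to 1.

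With upper-quartile factors 63 of 78 did so. NFIL3 (-1.09) and CRY1 (-1.88) in Direct-78 lost the call and NFIL3 in S2-32 gained it (-1.37). CRY1 turned in S2-32 against S1-32 (0.012) and in S3-78 (0.022), DBP in Direct-78 (0.0025) and S3-57 (0.0040), and NFIL3 in S1-32 (-0.069). The adjusted p was 0.0545 for CRY1 over weeks on DCA, and 0.0331 at 32 weeks and 0.189 at 78 weeks for NFIL3. The Spearman correlation of DBP and CRY1 was -0.32 and that of NFIL3 and CRY1 0.26, r of total count and NFIL3 (0.26) no longer passed, and clock genes in Direct-78 went from 3 to 1.

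With all genes of at least 1 count 65 of 66 were kept, and CRY1 in Direct-78 (-2.42) lost the call. With all 78 libraries DBP lost the call in S1-57 (-4.20) and S1-78 (-3.94) and at 57 weeks (adjusted p = 0.155), and rho of NFIL3 and CRY1 (0.24) and r of total count and NFIL3 (0.22) no longer passed, while r and rho of total count and CRY1 (0.52 and 0.45) did. Turned were r of DBP and CRY1 (0.14) and r and rho of total count and DBP (0.23 and 0.063).

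Adding log2 total count to the model kept 43 of 57. CRY1 (-1.04) and NFIL3 (-0.18) in Direct-78 lost the call. CRY1 turned in S2-32 against S1-32 (0.24), S2-78 (0.28) and S3-78 (0.42), and NFIL3 in Direct-78 against S3-78 (0.26) and in S1-32 (-0.27). Adjusted p-values past the threshold were 0.0665 for NFIL3 and 0.133 for CRY1 among 13 groups, 0.0794 for DBP, 0.795 for NFIL3 and 0.294 for CRY1 at 78 weeks, and 0.103 for NFIL3 and 0.701 for CRY1 over weeks on DCA.

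With limma 46 of 57 were kept. CRY1 gained the call in S1-32 (2.36) and S2-32 (2.27), DBP lost it in S1-78 (-1.60) and NFIL3 in Direct-78 (-1.46). DBP turned in Direct-78 (2.03), S2-78 (1.84) and S3-78 (0.16). The adjusted p was 0.0112 for CRY1 and 0.0219 for NFIL3 at 32 weeks, and 0.0725 for DBP and 0.102 for NFIL3 at 78 weeks. With DESeq2 CRY1 gained the call in S1-32 (1.58) and S2-32 (1.56) and NFIL3 in S2-32 (-1.24), NFIL3 lost it in Direct-78 (-1.18), DBP turned in S2-78 (0.011) and S3-57 (0.012), and DBP was called in S3-57 against S1-57 (3.98, a test chosen after seeing the data). With the 2 compared groups alone CRY1 (-2.29) and NFIL3 (-1.56) in Direct-78 and DBP in S1-78 (-3.91) lost the call.

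Without the 4 libraries with acinar signal, an alternative chosen after seeing the data, 69 of 78 were kept. DBP (-2.97) and CRY1 (1.74) in S1-32 gained the call, DBP in S1-78 (-3.87) lost it, and CRY1 (0.013) and DBP (0.11) turned in S2-78. The adjusted p at 32 weeks was 0.0335 for DBP and 0.0464 for NFIL3, and r of NFIL3 and CRY1 (0.38) and rho of total count and NFIL3 (0.35) passed. With total count removed, rho of DBP and CRY1 was -0.27 and passed. Without the 2 farthest libraries r of total count and NFIL3 (0.30) no longer passed.

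Leaving out 1 library at a time changed a call or a direction for the following, given as lowest and highest value. DBP ran from -2.97 to -0.078 in S1-32, -4.67 to -3.96 in S1-57, -4.45 to -2.69 in S1-78, -0.63 to 1.08 in S2-78, -0.42 to 0.22 in S3-57, -1.84 to 0.22 in S3-78 and -0.63 to 0.98 in Direct-78. NFIL3 ran from -0.050 to 0.36 in S1-32, -0.27 to 0.18 in S3-57, -1.82 to -1.15 in Direct-78 and -0.68 to 0.037 in Direct-78 against S3-78. CRY1 ran from 1.35 to 2.54 in S1-32, 1.36 to 2.53 in S2-32, -1.95 to 0.016 in S2-78, -0.46 to 0.091 in S3-78, -3.52 to -1.76 in Direct-78 and -0.23 to 0.16 in S2-32 against S1-32. The adjusted p ran from 0.00413 to 0.0532 for CRY1 among 13 groups. At 32 weeks it ran from 0.0321 to 0.824 for DBP, 0.0314 to 0.156 for NFIL3 and 0.00685 to 0.204 for CRY1, and at 57 weeks from 0.0243 to 0.0702 for DBP. At 78 weeks it ran from 0.0324 to 0.0950 for DBP, 0.0204 to 0.132 for NFIL3 and 0.00607 to 0.114 for CRY1, and over weeks on DCA from 0.0153 to 0.0586 for NFIL3 and 0.00490 to 0.119 for CRY1.

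Depth limits what the CRY1 values of Direct-78 can show, since they rest on 0, 7 and 22 reads, and the 0 allows up to 4.05 CPM by counting error alone. The hour of death is not in the labels, which limits what can be read from all 3 genes.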

Other observations

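Other genes with daily rhythms in liver, and genes that follow feeding, stress hormones or handling, were described in the same comparisons with edgeR, as counts with no test of a list. The share of all genes called was 5.49% in S1-10, 29.1% in S1-32, 1.81% in S1-78, 10.7% in S2-32, 1.63% in S2-78, 6.39% in S3-57, 13.3% in S3-78 and 24.4% in Direct-78. Each call named here kept its direction with median-ratio and upper-quartile factors and with each library left out, alternatives chosen after seeing the data for these genes.

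Of 14 tested genes of rhythmic liver outputs, CYP2A5, a cytochrome P450, fell in S1-10 (-3.45, adjusted p = 0.00489). Its highest library, mouse 68 of Control-10, had 22970 CPM against a group median of 2347, and without it the change was -1.60 and not called (adjusted p = 0.451). TSC22D3 fell in S1-32 (-1.72). CYP2A4 rose in Direct-78 (4.41), and in S3-78 (5.13), where the call ended without mouse 55 (3.71). ELOVL3, a fatty acid elongase, fell in Direct-78, where 2 of 3 libraries had no read. The median change of the list was -0.57 in S1-57 and -0.44 in S1-78, where DBP fell, and -0.62 in S2-78 and -0.46 in Direct-78, where it was not called, against 0.07, 0.07, 0.06 and -0.33 over all genes. Within groups 9 of the 14 had a positive rho with DBP (median 0.23) and 5 with NFIL3 (median -0.07).

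Of 10 fasting and feeding genes 4 were called in S1-32, 2 in S3-78 and 1 each in Direct-78, S3-57, S2-32 and S1-10. In S1-32 the call of ACLY held with each library left out. That of FASN ended without mouse 75, and that of ME1 in 8 of 12 cases. The call of ME1 in S3-57 ended without mouse 51 or 83, and in S3-78 without mouse 55. INSIG1 rose in S1-32 (1.59) and fell in S3-78 (-1.52) and Direct-78 (-2.10), and these calls held with each library left out. It also rose in S1-10 (1.52), a call that ended without mouse 18 (1.38), 68 (1.37) or 71 (1.46), and in S2-32 (1.23), where it ended without mouse 39 (1.05) or 76 (1.06). Of 5 glucocorticoid-responsive genes 2 were called in S2-32 and 1 each in S1-32, S3-57 and S3-78. In S2-32 the call of MT2 ended without mouse 75, and that of TSC22D3 in 8 of 12 cases with 1 library left out. That of FKBP5 in S3-57 ended in 6 of 11 cases. FKBP5 rose in S3-78 (2.51), a call that ended without mouse 55 (0.96). Of 9 immediate-early genes 4 fell in S1-32 and 3 in Direct-78, and 1 each in S1-10, S1-78 and S2-78. With 1 library left out, the calls of ATF3, FOS and ZFP36 in S1-32 ended in 10, 4 and 4 of 12 cases, while that of IER3 held. Those of EGR1, JUN and NR4A1 in Direct-78 ended in 4, 3 and 4 of 9 cases. ATF3 in S1-10 ended in 7 of 10 and FOS in S2-78 in 5 of 10. The calls of FOS in S2-78 and NR4A1 in Direct-78 also ended with median-ratio and upper-quartile factors. FOS fell in S1-78 (-4.01), a call that held with each library left out, although the value ran from -5.31 without mouse 31 to -3.25 without mouse 89. Of 9 genes in the heat shock list 2 fell in each of S1-32, S1-78, S2-32, S2-78 and S3-78, 4 fell in Direct-78, and 1 rose in S3-78 and 2 in Direct-78. The gene that rose in S3-78 was CIRBP, a cold-inducible RNA-binding protein and not a heat shock protein. Those that rose in Direct-78 were CIRBP and HSPD1. With 1 library left out, the call of HSPB1 ended in 7 of 12 cases in S1-78 and 2 of 10 in S2-78. That of HSPD1 ended in 4 of 12 cases in S2-32 and 5 of 9 in Direct-78. In Direct-78 HSPA1B also ended in 4 of 9 cases, and CIRBP and HSPH1 in 1 each. The call of HSPB1 in S1-78 also ended with median-ratio and upper-quartile factors, and that of HSPA1B with upper-quartile factors. DNAJB1 fell in S2-78 (-3.95) and Direct-78 (-3.58), calls that held although the values were -2.87 and -2.49 without mouse 90 and -4.69 in Direct-78 without mouse 64. Without mouse 90 its calls in S1-78 (-2.74) and S3-78 (-2.76) ended, at -1.65 and -1.67.

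Marker lists of cell types were read against the members within groups, with no test. Median rho with DBP was 0.06 over 6 hepatocyte markers, -0.11 over 3 of cholangiocytes, -0.11 over 6 of macrophages, -0.28 over 3 of lymphocytes, 0.04 over 4 of endothelium, -0.10 over 6 of stellate cells and fibroblasts, -0.08 over 3 erythroid markers and 0.17 over 8 acinar markers. With NFIL3, in the same order, it was 0.20, -0.11, -0.0080, 0.07, -0.05, -0.11, -0.02 and -0.17, and rho was positive for 5 of 6 hepatocyte and 1 of 8 acinar markers. With CRY1 it was 0.34, 0.14, 0.29, -7.6e-05, 0.17, 0.19, -0.12 and -0.29, and rho was positive for 4 of 6 hepatocyte and 6 of 6 macrophage markers.

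In the 10 libraries that the authors left out, DBP ran from 0 to 628 CPM, NFIL3 from 0 to 278.8 and CRY1 from 0 to 30.8.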
